A study of Danio rerio with 2 samples.

Results

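Chemokines are small secreted proteins that guide migrating cells, and their receptors are G protein-coupled receptors on the surface of the cells that respond. The genes described here are those of the zebrafish chemokine system: every gene whose name started with ccl, cxcl, ccr, cxcr, xcr or ackr and a digit, whatever the letter case, with at least 10 unique molecular identifiers (UMIs, 1 tag per captured RNA molecule) over all wells. Of 80 names of this form in the reference name table, 48 had a row in the data, 15 of these held fewer than 10 UMIs, and 33 were members, out of 22342 genes in all. The 33 were 15 ligands, 14 receptors and 4 atypical receptors. The other 32 names, cxcl8a and CXCR5 among them, had no row in the data, which does not show that they were not expressed.

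The study sorted single green cells from the tails of 3-day-old zebrafish embryos (3 days after fertilization) and measured their RNA by SORT-seq on 2 plates. All embryos carried mpeg1:EGFP, in which the promoter of a macrophage gene drives green fluorescence, and runx1+23:mCherry, which marks hematopoietic stem and progenitor cells (HSPCs) red. The purpose was to compare macrophages that had picked up fluorescent material from HSPCs with those that had not. EGFP+mCherry+ cells filled wells 1 to 192 of each plate. EGFP+mCherry- cells filled wells 193 to 384. The gate is known only from the well number, and fluorescence does not tell uptake of mCherry from its expression by the sorted cell itself.

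Of the 192 wells of a gate, 143 mCherry+ and 151 mCherry- wells were kept on plate 1, and 123 mCherry+ and 117 mCherry- wells on plate 2, with a median of 7934 to 10839 UMIs. The label of all wells is macrophages, but clusters made without the 33 genes gave 126 neutrophil-like wells, 205 macrophage-like wells, 33 erythroid-like wells and 14 muscle-like wells, and 156 wells stayed unnamed. The 19 identifiers of the macrophage marker list summed to 867 CPM (UMIs of a gene scaled to a fixed library total) in neutrophil-like wells and 14428 CPM in macrophage-like wells. The 13 identifiers of the neutrophil list summed to 110122 CPM in neutrophil-like wells and 3149 CPM in macrophage-like wells. Plates and clusters were not independent: cluster 5, macrophage-like, held plate 1 wells only, and of the 126 neutrophil-like wells 3 were mCherry+ wells of plate 2.

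In vertebrates CC and CXC ligands are named for the spacing of their first cysteines, and receptors are named for the class of ligand they bind. Atypical receptors bind chemokines without the usual G protein signal and remove them from the surroundings. In hematopoietic tissue CXCL12, made by stromal cells, acts through CXCR4 to retain stem and progenitor cells, and neutrophils use the same pair during their release into blood. Fish carry expanded sets of CC ligands with no simple counterpart in mammals, ccl34, ccl35 and ccl38 among them. No sequence of these genes was used here.

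The 33 genes held 12190 of 6186720 UMIs in kept wells (0.197%), and 1 gene dominated. ccl35.2 (ENSDARG00000070378), a CC ligand, gave 5877 UMIs, which is 81.4% of all ligand UMIs. The most counted receptor was CXCR4 (ENSDARG00000041959), with 1076 UMIs, or 22.3% of the UMIs of the 14 receptors. Then came cxcr3.2 with 904 UMIs, CCR9 (ENSDARG00000055186) with 859, ccr12a with 812 and cxcr3.3 with 700. In all, 19 members reached 50 UMIs. The remaining 14 held 10 to 49 UMIs and are described by their UMIs and wells.

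**Figure D1:**
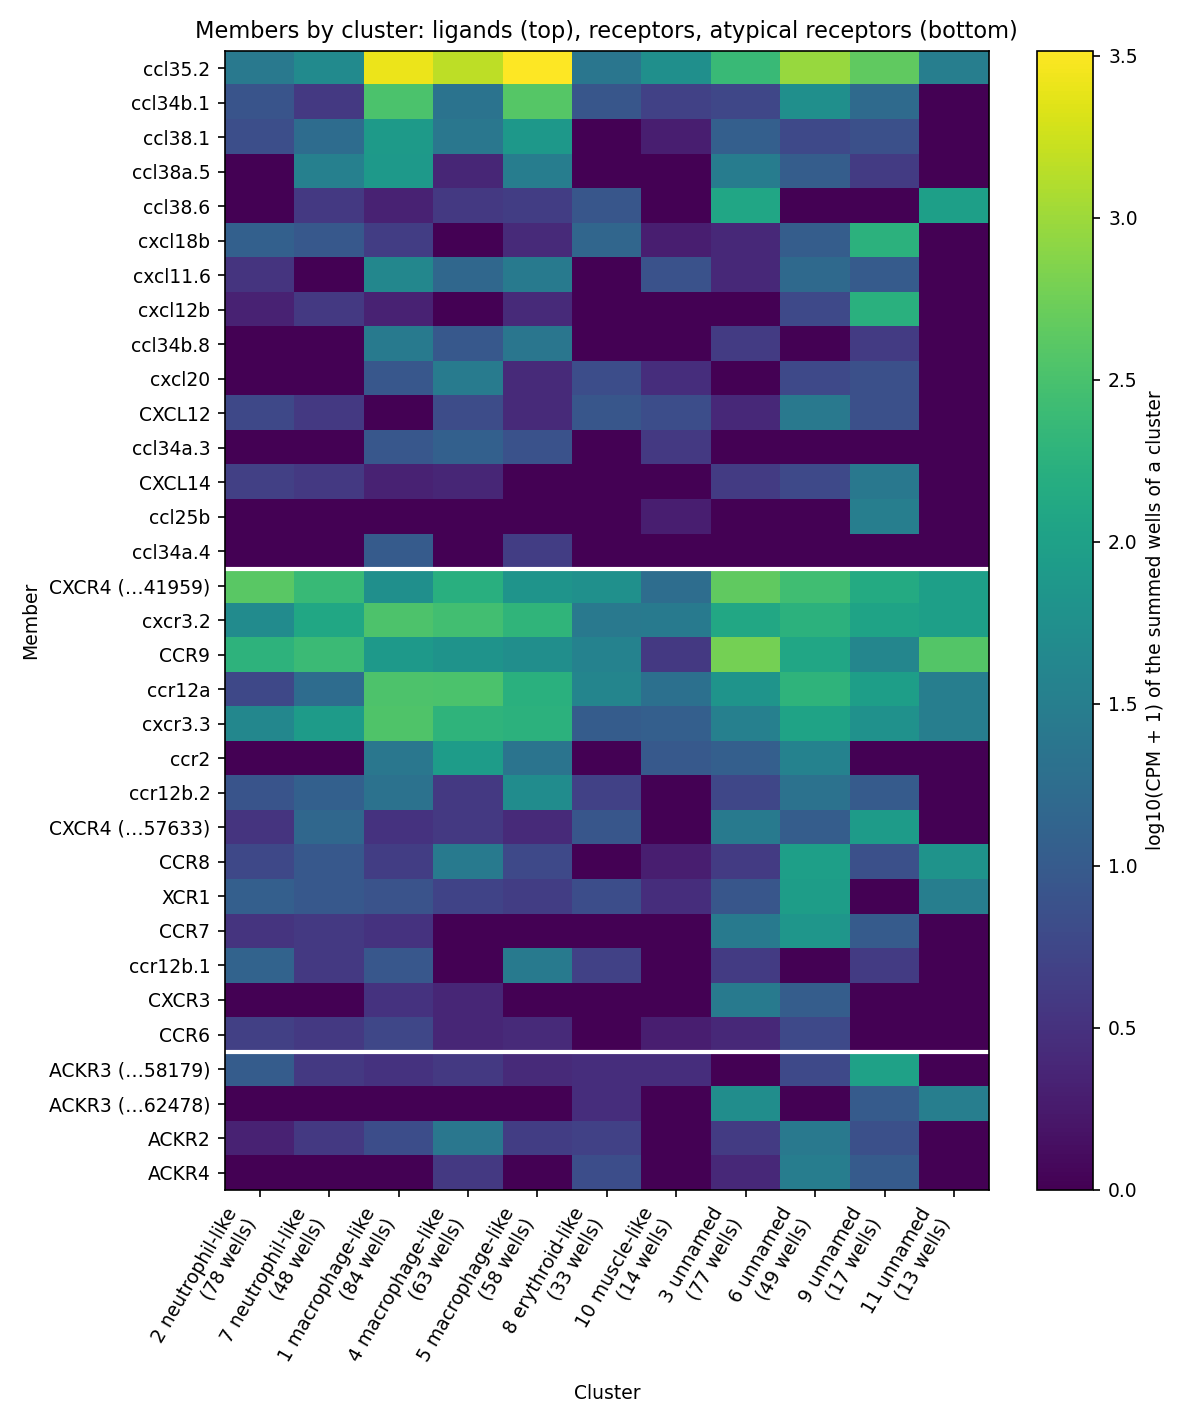
Level of each of the 33 members in each of the 11 clusters, as log10(CPM + 1) of the summed wells, with ligands at the top, receptors in the middle and atypical receptors at the bottom. ccl35.2 was highest in macrophage-like clusters 5 and 1, CCR9 in unnamed cluster 3, and cxcl18b and cxcl12b in unnamed cluster 9.

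Among the ligands, most were carried by macrophage-like wells. Macrophage-like wells held 35.7% of all UMIs, but 89.8% of those of ccl35.2, 94.1% of those of ccl34b.1, 85.8% of those of ccl38.1 and 79.5% of those of cxcl11.6, a member of the CXCL11 group of CXCR3 ligands. The low-count CC ligands followed them. All 10 UMIs of ccl34a.4 were in macrophage-like wells, as were 86.4% of the 22 UMIs of ccl34a.3 and 93.6% of the 47 UMIs of ccl34b.8. The 36 UMIs of cxcl20 were in 17 wells, with 77.8% in macrophage-like wells. Of the 123 UMIs of ccl38a.5, 89 were in macrophage-like wells, and 29 came from 1 mCherry+ macrophage-like well of plate 2.

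The 9 CC ligands together reached 57.7 CPM in neutrophil-like wells and 2773 CPM in macrophage-like wells. The 6 CXC ligands reached 20.9 CPM in neutrophil-like wells and 46.7 CPM in macrophage-like wells. In wells thinned at random to 2000 UMIs, few ligands were seen per well: the median well held 0 of the 15 ligands among 119 neutrophil-like wells and 1 among 202 macrophage-like wells. No ligand was seen in 102 of those neutrophil-like wells (85.7%) and in 27 of the macrophage-like wells (13.4%).

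ccl35.2 was found in most macrophage-like wells. At 2000 UMIs it was found in 9 of 119 neutrophil-like wells (7.56%, exact 95% interval 3.52 to 13.9%) and in 162 of 202 macrophage-like wells (80.2%, 74.0 to 85.5%). Without thinning the shares were 22.7% and 89.1%, at median depths of 8628 and 10398 UMIs. Erythroid-like wells, taken here as a type not known for this ligand, had it in 1 of 31 thinned wells (3.23%, 0.0816 to 16.7%), and its interval takes in that of neutrophil-like wells, so the share in neutrophil-like wells was not told apart from that in erythroid-like wells. Erythroid-like wells also had 4 HSPC or progenitor markers raised, with MYB and cd34 among their leading genes, so a UMI there may be free RNA or their own, which was not tested. Intervals here cover counting error only.

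Other ligands were carried elsewhere. Cluster 3 (77 wells: 40 mCherry+ and 19 mCherry- on plate 1, 13 mCherry+ and 5 mCherry- on plate 2) had 1 of the HSPC or progenitor markers raised, too few for a name. ptmaa, hmga1a and cirbpb, genes of chromatin and RNA binding, were among its leading genes. It held 85.7% of the 91 UMIs of ccl38.6. By plate and gate, cluster 3 wells had 45 ccl38.6 UMIs in mCherry+ and 4 in mCherry- on plate 1, and 29 in mCherry+ and 0 in mCherry- on plate 2. They came from few wells, since 5 wells gave 61.6% of all ccl38.6 UMIs.

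Cluster 9 (17 wells, 9 and 6 of them mCherry+ on plates 1 and 2) was led by COL1A1, COL1A2 and SPARC, genes of the collagen matrix, and had 9 epithelial and 5 fibroblast markers raised, so it stayed unnamed. It held 91.7% of the 60 UMIs of cxcl12b, the stromal ligand of CXCR4, and 68.6% of the 86 UMIs of cxcl18b, known in zebrafish as a neutrophil attractant. It also held 10 of the 11 UMIs of ccl25b, whose mammalian counterpart binds CCR9, and 8 of the 17 UMIs of CXCL14. Single wells decided these values: 1 mCherry+ well of plate 2 held 41 of the cxcl12b UMIs (68.4%) and another held 9 of the ccl25b UMIs. The 28 UMIs of CXCL12 (ENSDARG00000037116) were scattered over 18 wells of all types, at no more than 25 CPM in a cluster.

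The receptors split between the cell types. At 2000 UMIs a median of 1 of the 14 receptors was seen in a neutrophil-like well and 2 in a macrophage-like well, and 34 neutrophil-like wells (28.6%) and 29 macrophage-like wells (14.4%) showed none. cxcr3.2 and cxcr3.3 belong to the CXCR3 family, of which in zebrafish Cxcr3.2 signals on macrophages and Cxcr3.3 acts as a scavenger. They had 68.6% and 79.3% of their UMIs in macrophage-like wells. ccr12a, a fish CC receptor, had 79.9% there and ccr2, the receptor of monocyte recruitment in mammals, 80.8%. Of the 72 UMIs of ccr12b.2, 69.4% were in macrophage-like wells, and of the 39 of ccr12b.1, 59.0%. In the reference table of assembly GRCz12tu, cxcr3.2 and cxcr3.3 are neighbours, as are ccr12b.1 and ccr12b.2. Among the ligands, so are ccl34a.3 and ccl34a.4, and ccl38.6 and ccl38a.5. How reads shared by such copies were assigned is not given in the sources used here.

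CXCR4 (ENSDARG00000041959) and CCR9, a receptor of thymus homing, had another distribution. Neutrophil-like wells held 39.5% of the CXCR4 UMIs and macrophage-like wells 19.1%. For CCR9 the shares were 28.4% in neutrophil-like wells and 16.9% in macrophage-like wells. Cluster 3 carried the highest level of both, with 449 CPM of CXCR4 and 607 CPM of CCR9, in 43 of its 77 wells each. Among neutrophil-like clusters, CXCR4 stood at 408 CPM in cluster 2 and 233 CPM in cluster 7, and CCR9 at 187 CPM and 244 CPM.

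The plates and gates of cluster 3 differed. CCR9 stood at 826 CPM in mCherry+ and 304 CPM in mCherry- wells of plate 1, and at 625 CPM in mCherry+ and 27.7 CPM in mCherry- wells of plate 2, where the mCherry- value is 1 UMI in 5 wells. CXCR4 stood at 702 CPM in mCherry+ and 230 CPM in mCherry- wells of plate 1, and at 143 CPM in mCherry+ and 138 CPM in mCherry- wells of plate 2. These values were not tested.

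The symbol CXCR4 is shared by a second identifier, ENSDARG00000057633, with 63 UMIs and another carrier. Cluster 9 held 42.9% of them and cluster 3 28.6%, and 24 UMIs (38.2%) came from the same mCherry+ well of plate 2 that held 41 UMIs of cxcl12b. ACKR3, the atypical receptor that removes CXCL12, also has 2 identifiers. Of the 51 UMIs of ENSDARG00000058179, 64.7% were in cluster 9, with 19 UMIs in the plate 1 mCherry+ well that also held 24 UMIs of cxcl18b. Of the 39 UMIs of ENSDARG00000062478, 87.2% were in cluster 3 and all were on plate 1. Only identifiers tell these pairs apart.

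Of the sparse receptors, CCR7, which guides cells to lymph nodes in mammals, had 39 UMIs in 22 wells, 17 in cluster 3 and 14 in cluster 6, a shallow unnamed cluster with a median of 1030 UMIs. CXCR3 (ENSDARG00000007358) had 17 of its 22 UMIs in cluster 3. CCR8 had 58 UMIs, with 43.1% in macrophage-like wells, which held 35.7% of all UMIs, and 19 UMIs in cluster 6. XCR1, a dendritic cell receptor in mammals, had 52 UMIs in 45 wells, with 18 UMIs in cluster 6. That is 90.0 CPM in cluster 6, against 4.99 CPM in macrophage-like wells. CCR6 had 13 UMIs in 12 wells. Of the other atypical receptors, ACKR2, a scavenger of inflammatory CC ligands, had 37 UMIs with 64.9% in macrophage-like wells, and ACKR4 had 15 UMIs in 10 wells.

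The first test set neutrophil-like against macrophage-like wells, with gates pooled and wells summed by plate. The most variable genes, with the members left out, made these clusters, so the p-values take the cell types as given. Among all genes tested 24.3% passed the threshold (an adjusted p of edgeR's quasi-likelihood test under 0.05), 11.0% higher and 13.4% lower in neutrophil-like wells. Of the 13 members tested, 11 passed, 2 higher and 9 lower. DESeq2 called 9, and the share of all genes it called is not given. The median log2 fold change of the 13 was −2.59, against −0.03 over all genes tested. The other 20 members were too sparse to be tested. The filter on low counts admits a gene on its counts in 1 cell type. ccr2, ccl34b.8, cxcl11.6 and ccl34b.1, with 0 to 7 UMIs in neutrophil-like wells, and ccr12b.2, with 10, entered through macrophage-like wells only. For them lower was the only call open. Of the neutrophil-like sums of ccr12a, ccl38.1 and ccl38a.5, only that of plate 2 reached the filter's level. These members too needed macrophage-like wells to be tested. The split of calls and the median therefore do not describe the members as a set. Most neutrophil-like wells of plate 1 were in cluster 2 and those of plate 2 in cluster 7.

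**Figure D2:**
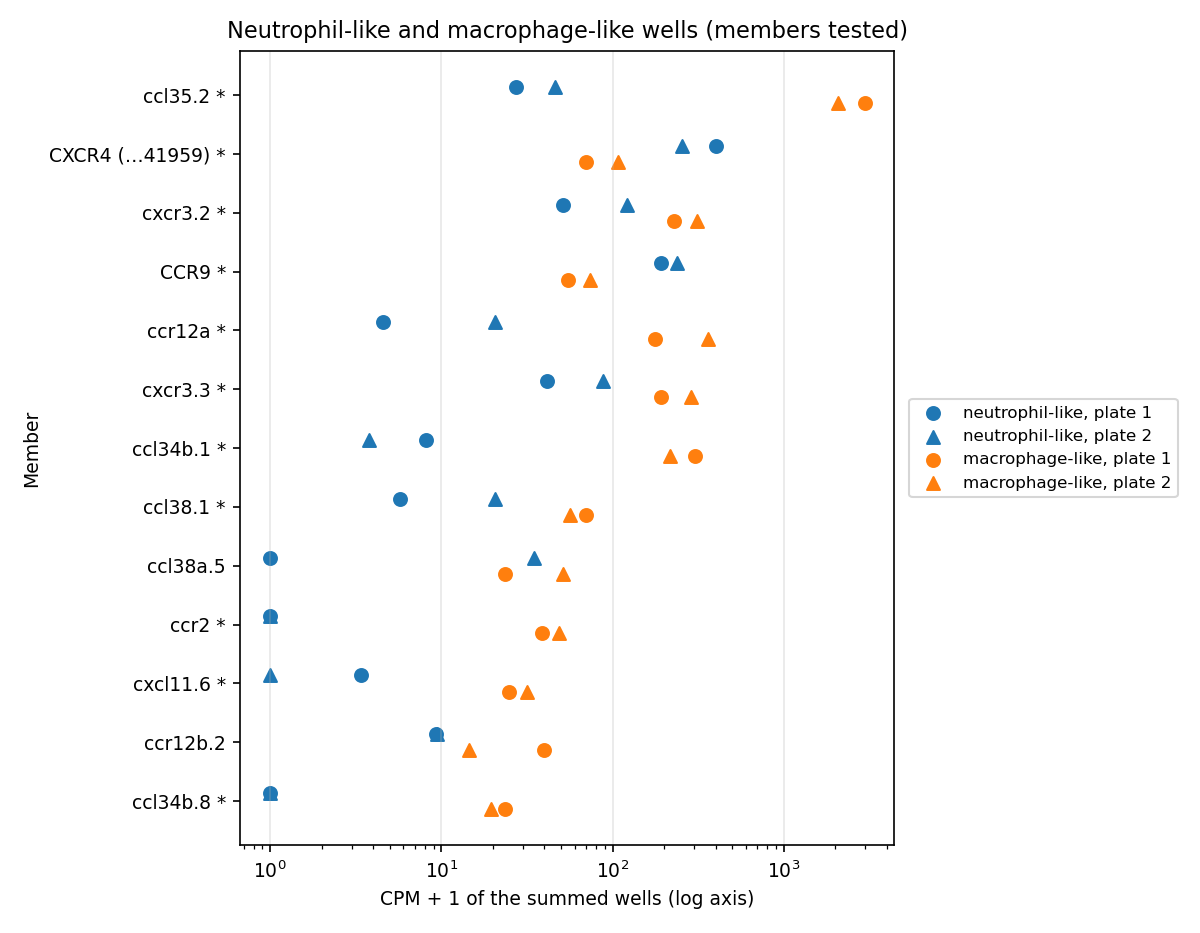
CPM + 1 on a log axis of the 13 members tested in neutrophil-like (blue) and macrophage-like (orange) wells, with a circle for plate 1 and a triangle for plate 2. Asterisks mark the 11 members past the threshold, and CXCR4 (ENSDARG00000041959) and CCR9 are the 2 with blue to the right of orange among them.

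CXCR4 (ENSDARG00000041959) stood at 399 and 252 CPM in neutrophil-like wells of plates 1 and 2, against 69.1 and 106 CPM in macrophage-like wells. It was higher in neutrophil-like wells on both plates, with a log2 fold change of 1.94 (SE 0.34, edgeR adjusted p = 0.00641). By gate, plate 1 had 634 CPM in 20 mCherry+ and 262 CPM in 63 mCherry- neutrophil-like wells, with 47 UMIs in 1 mCherry+ well. Plate 2 had 283 CPM in 3 mCherry+ and 249 CPM in 40 mCherry- neutrophil-like wells. These gate values were not tested. CCR9 stood at 190 and 238 CPM in neutrophil-like wells, against 54.0 and 72.4 CPM in macrophage-like wells. It rose by a log2 fold change of 1.83 (SE 0.27, edgeR adjusted p = 0.0031). In thinned wells CXCR4 was seen in 47 of 119 neutrophil-like wells (39.5%, 30.7 to 48.9%) and 33 of 202 macrophage-like wells (16.3%, 11.5 to 22.2%). CCR9 was seen in 36 of 119 neutrophil-like wells (30.3%, 22.2 to 39.3%) and 23 of 202 macrophage-like wells (11.4%, 7.36 to 16.6%). Erythroid-like wells showed CXCR4 in 12.9% (3.63 to 29.8%) and CCR9 in 6.45% (0.791 to 21.4%), intervals that overlap those of macrophage-like wells.

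ccl35.2 had 26.2 and 44.8 CPM in neutrophil-like wells, against 2965 and 2067 CPM in macrophage-like wells. Its log2 fold change was −6.17 (SE 0.37, edgeR adjusted p = 0.00012), the largest fall among members with more than 3 UMIs in neutrophil-like wells. ccl34b.1 had 7.15 and 2.80 CPM in neutrophil-like wells, against 300.1 and 214 CPM in macrophage-like wells (log2 fold change −5.54, SE 0.40, edgeR adjusted p = 0.000195). It entered the test through macrophage-like wells only, so lower was the only call open to it. ccl38.1 had 4.77 and 19.6 CPM in neutrophil-like wells, against 69.1 and 55.3 CPM in macrophage-like wells (log2 fold change −2.59, SE 0.60, edgeR adjusted p = 0.0205). The filter admitted ccl38.1 with the help of macrophage-like wells, since of its neutrophil-like sums only that of plate 2 reached the filter's level. For these 3 CC ligands each neutrophil-like sum lay below each macrophage-like sum. The share of all genes without overlap is not given, so this order cannot be set against it.

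Of the receptors, ccr12a had 3 and 7 UMIs in neutrophil-like wells, against 141 and 508 UMIs in macrophage-like wells. That is 3.58 and 19.6 CPM against 177 and 360.4 CPM (log2 fold change −4.70, SE 0.44, edgeR adjusted p = 0.000532). Its entry into the test needed macrophage-like wells, since of its neutrophil-like sums only that of plate 2 reached the filter's level. cxcr3.2 had 50.1 and 120 CPM in neutrophil-like wells, against 227 and 311 CPM in macrophage-like wells, and fell by 1.71 on the log2 scale (SE 0.32, edgeR adjusted p = 0.00948). cxcr3.3 had 40.5 and 86.8 CPM in neutrophil-like wells, against 191 and 286 CPM in macrophage-like wells, and fell by 1.91 (SE 0.30, edgeR adjusted p = 0.00446). Thinned neutrophil-like wells showed cxcr3.2 in 16.0% (9.90 to 23.8%), against 6.45% (0.791 to 21.4%) of erythroid-like wells. These intervals overlap, so the thinned shares were not told apart. Without thinning, cxcr3.2 summed to 71.1 CPM (56.8 to 87.9) in neutrophil-like wells and 25.03 CPM (13.3 to 42.8) in erythroid-like wells. Those intervals lie apart but cover counting error only. The top erythroid-like well held 46.2% of the cxcr3.2 UMIs of its type, and this difference was not tested.

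ccr2 had no UMI in the 126 neutrophil-like wells and 97 in the 205 macrophage-like wells. Against a floor of 3 counts over the group it was at least 17.5-fold higher in macrophage-like wells (edgeR adjusted p = 0.0039). Thinned, it was in 0 of 119 neutrophil-like wells, which allows a share of wells with a UMI of up to 2.52% by the floor of 3 counts and of up to 3.05% by the exact 95% interval, and in 17 of 202 macrophage-like wells (8.42%). ccl34b.8 also had no UMI in neutrophil-like wells and 44 in macrophage-like wells, at least 7.95-fold higher in macrophage-like wells (edgeR adjusted p = 0.0151). cxcl11.6 had 2 UMIs in neutrophil-like wells and 62 in macrophage-like wells, a ratio of 16.8 in favour of macrophage-like wells with an exact 95% counting interval of 4.46 to 142 (edgeR adjusted p = 0.0142). ccl38a.5 did not pass, with 0 and 12 UMIs in neutrophil-like wells, against 18 and 71 in macrophage-like wells (edgeR adjusted p = 0.249). ccr12b.2 did not pass either, with 8.35 and 8.40 CPM in neutrophil-like wells, against 38.9 and 13.5 CPM in macrophage-like wells (edgeR adjusted p = 0.097). ccr2, ccl34b.8, cxcl11.6 and ccr12b.2 entered the test through macrophage-like wells only, so lower was the only call open to them. For the sparse calls, DESeq2 put ccl38.1 (adjusted p = 0.0503) and cxcl11.6 (adjusted p = 0.0705) outside the threshold.

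Genes that carry the chemokine signal into the cell were listed apart. Of 25 tested in this comparison, 8 were higher in neutrophil-like wells and 0 lower, where 11.0% of all genes tested were higher and 13.4% lower. The median log2 fold change was 0.39, against −0.03 over all genes tested. PRKCD, a protein kinase C, was at 444 and 403 CPM in neutrophil-like wells, against 12.6 and 7.09 CPM in macrophage-like wells. rac2, the GTPase of neutrophil migration, was at 711 and 720 CPM in neutrophil-like wells, against 424 and 458 CPM in macrophage-like wells. PIK3CD, wasa, WAS, GRK6 and CDC42, which act in lipid signaling, actin branching and receptor desensitization, were also among those that rose. Among receptors for other attractants 2 of 8 rose (S1PR4, GPR183) and 2 fell (C3AR1, CMKLR1). C3AR1 entered the test through macrophage-like wells only, so lower was the only call open to it. CMKLR1, the chemerin receptor, stood at 47.7 and 86.8 CPM in neutrophil-like wells, against 692 and 595 CPM in macrophage-like wells.

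The second test set the mCherry+ against the mCherry- gate over all kept wells. Among all genes tested 4.75% passed, 2.42% higher and 2.32% lower in mCherry+ sums. Of 18 members tested 0 passed, and the lowest adjusted p of edgeR was 0.0509. At an unadjusted p under 0.05 there were 9 members, 3 higher and 6 lower, where 17.9% of all genes tested reached it. Of these members, ccl38.6 and cxcl18b passed the filter on low counts through mCherry+ wells only, and ccr12b.2 through mCherry- wells only. Their direction was fixed by the filter. DESeq2 called 1 member, ccl34b.1, and the share of all genes it called is not given. Without a filter on low counts edgeR called 9 members, a setting for which the share of all genes called is not given. In these sums fewer cells of a type and less RNA per cell cannot be told apart. Macrophage-like wells made up 17.5% of the mCherry+ gate and 34.4% of the mCherry- gate on plate 1. On plate 2 they made up 61.0% of the mCherry+ gate and 45.3% of the mCherry- gate. Neutrophil-like wells made up 13.99% of the mCherry+ gate and 41.7% of the mCherry- gate on plate 1. On plate 2 they made up 2.44% of the mCherry+ gate and 34.2% of the mCherry- gate. Muscle-like wells held 17.0% of all UMIs in kept wells, which count in the library totals that CPM is scaled to. They were 3 mCherry+ and 3 mCherry- wells on plate 1, and 6 mCherry+ and 2 mCherry- wells on plate 2. The part of these shares in the members' values was not tested.

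**Figure D3:**
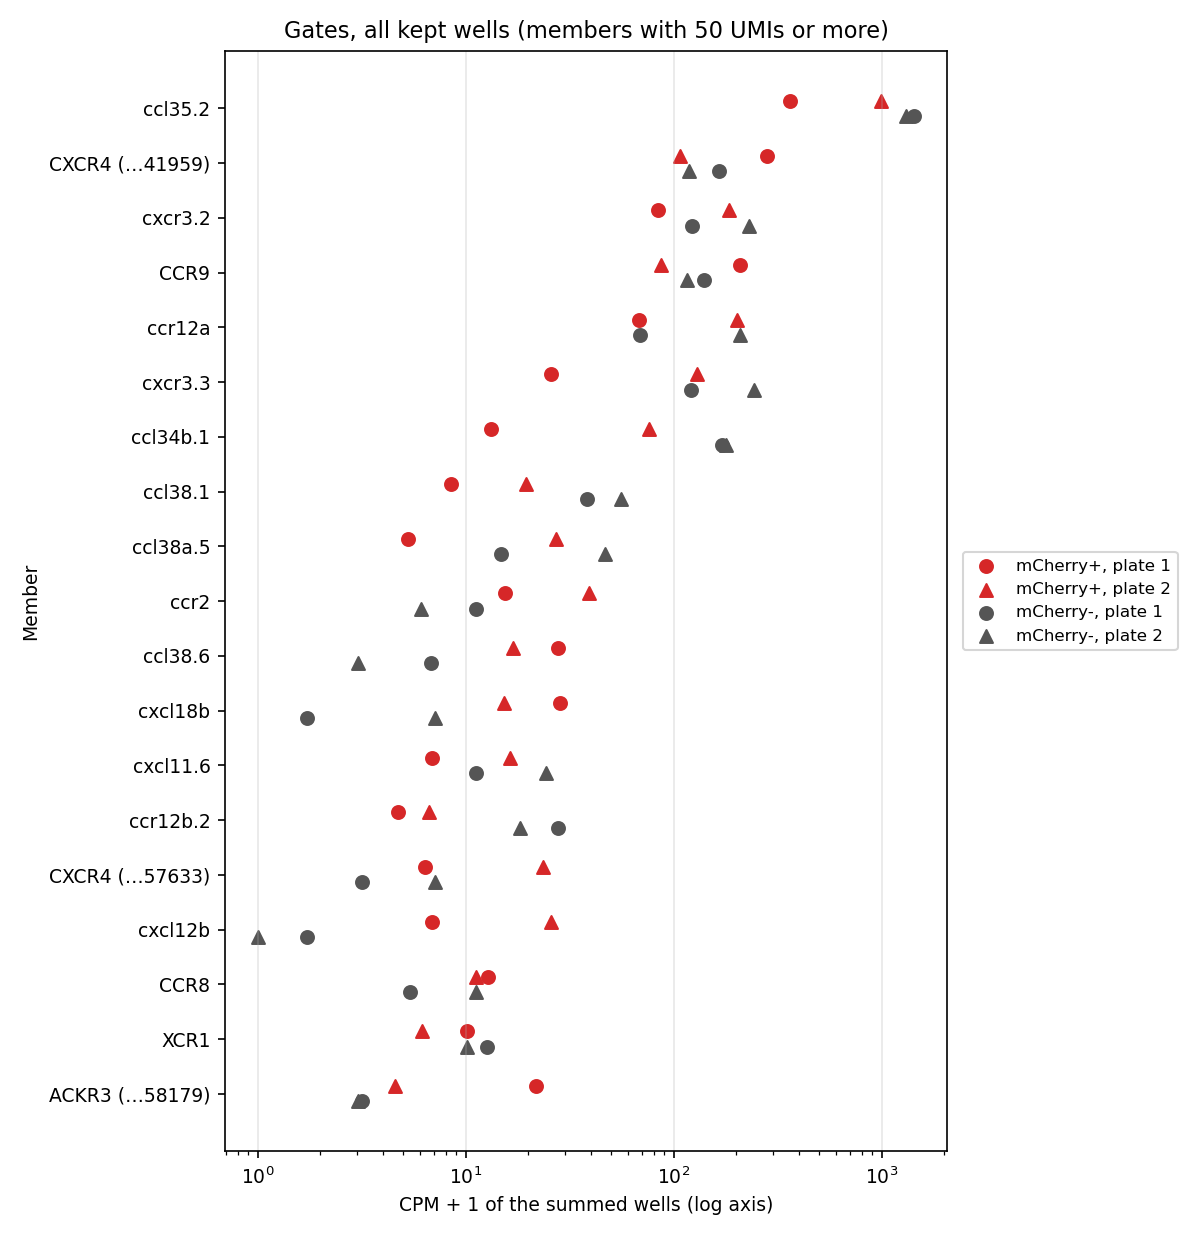
CPM + 1 on a log axis of the 19 members with at least 50 UMIs, summed over all kept wells of a gate and plate, with mCherry+ in red, mCherry- in grey, circles for plate 1 and triangles for plate 2. ccl35.2 and ccl34b.1 were among those with both red points left of both grey points, and ccl38.6 and cxcl18b among those with both to the right. None of the members tested passed the threshold.

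Of the ligands, ccl35.2 had 675 and 1944 UMIs in mCherry+ wells of plates 1 and 2, against 1973 and 1285 in mCherry- wells. That is 360.2 and 996 CPM in mCherry+ wells, against 1434 and 1306 CPM in mCherry- wells (log2 fold change −1.24, SE 0.45, edgeR adjusted p = 0.177). The difference was mostly that of plate 1, where the log2 fold change was −2.25, against −0.22 on plate 2. ccl34b.1 had 12.3 and 75.3 CPM in mCherry+ wells, against 169 and 177 CPM in mCherry- wells (log2 fold change −2.45, SE 0.68, edgeR adjusted p = 0.0798). ccl38.1 had 7.47 and 18.4 CPM in mCherry+ wells, against 37.1 and 54.9 CPM in mCherry- wells (log2 fold change −1.93, SE 0.47, edgeR adjusted p = 0.0509). These 3 CC ligands had lower values in both mCherry+ sums than in either mCherry- sum, none past the threshold. Among the members tested, so did ccr12b.2 and XCR1, while ccr2, CCR8, ccl38.6, cxcl18b and ACKR2 were higher in both mCherry+ sums. ccl38.6, cxcl18b and ACKR2 passed the filter on low counts through mCherry+ wells only, and ccr12b.2 through mCherry- wells only. For these members the order followed from the filter. The share of all genes with sums apart in this way is not given, so these orders cannot be set against it.

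Ligands of clusters 3 and 9 had the opposite sign. ccl38.6 had 50 and 31 UMIs in mCherry+ wells, against 8 and 2 in mCherry- wells (log2 fold change 2.33, SE 0.58, edgeR adjusted p = 0.0534). cxcl18b had 51 and 28 UMIs in mCherry+ wells, against 1 and 6 in mCherry- wells (log2 fold change 2.67, SE 0.76, edgeR adjusted p = 0.0861). Both ligands entered the test through mCherry+ wells only, so higher was the only call open to them. cxcl12b, too sparse for the test, had 11 and 48 UMIs in mCherry+ wells, against 1 and 0 in mCherry- wells. Clusters 3 and 9 themselves lay mostly in the mCherry+ gate, and the part of this in the values was not tested.

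Of the receptors, CXCR4 (ENSDARG00000041959) had 281 and 107 CPM in mCherry+ wells, against 164 and 117 CPM in mCherry- wells, and the groups overlapped (edgeR adjusted p = 0.77). CCR9 had 207 and 85.5 CPM in mCherry+ wells, against 139 and 115 CPM in mCherry- wells (edgeR adjusted p = 0.978). ccr12a had 67.2 and 199 CPM in mCherry+ wells, against 67.6 and 207 CPM in mCherry- wells (edgeR adjusted p = 0.951), so that plate 2 lay higher than plate 1 in either gate. cxcr3.3 had 24.5 and 129 CPM in mCherry+ wells, against 120 and 242 CPM in mCherry- wells (log2 fold change −1.61, SE 0.49, edgeR adjusted p = 0.108). ccr12b.2 had 7 and 11 UMIs in mCherry+ wells, against 37 and 17 in mCherry- wells (edgeR adjusted p = 0.0607). Both identifiers of ACKR3 were counted mostly in mCherry+ wells of plate 1: 39 and 36 of their UMIs lay there.

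Of the signal transduction list, 0 of 26 genes tested passed in either direction between the gates over all wells. Among receptors of other attractants 1 of 10 was higher, S1PR1, a receptor of sphingosine 1-phosphate, with 8.01 and 13.8 CPM in mCherry+ wells, against 0 CPM in mCherry- wells of both plates. S1PR1 entered the test through mCherry+ wells only, so higher was the only call open to it. GPR84, a fatty acid receptor of myeloid cells, fell to 85.4 and 133 CPM in mCherry+ wells, against 722 and 489 CPM in mCherry- wells (log2 fold change −2.52, SE 0.45, edgeR adjusted p = 0.0153). PTAFR and ADORA2B were the other 2 that fell.

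The third test repeated the gates within macrophage-like wells, 25 mCherry+ and 52 mCherry- on plate 1, and 75 mCherry+ and 53 mCherry- on plate 2. Among all genes tested 4.33% passed, 2.34% higher and 1.99% lower in mCherry+ wells. Of 13 members tested 2 passed, ccr2 higher and ccl34b.1 lower, and 6 had an unadjusted p under 0.05, where 16.2% of all genes tested did. DESeq2 called 1 member, and the share of all genes it called is not given. The filter on low counts admitted ccr2 through its mCherry+ wells, since of its mCherry- sums only that of plate 1 reached the filter's level. ccr12b.2 entered through mCherry- wells only, so lower was the only call open to it. Different clusters made up the gates. On plate 1, mCherry+ wells were 14 of cluster 4 and 9 of cluster 5, and mCherry- wells were 49 of cluster 5. On plate 2, mCherry+ wells were 45 of cluster 4 and 30 of cluster 1, and mCherry- wells were 50 of cluster 1.

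**Figure D4:**
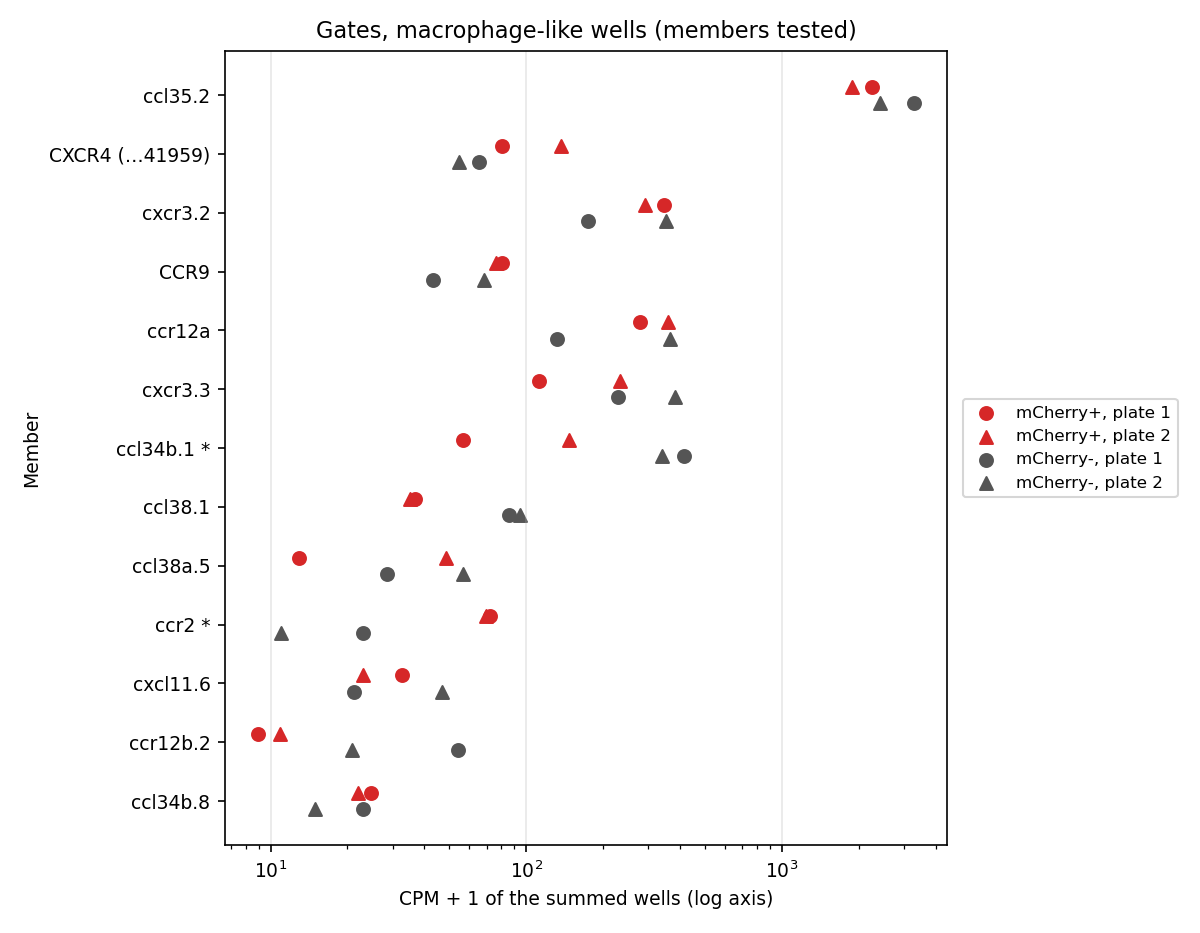
CPM + 1 on a log axis of the 13 members tested in macrophage-like wells, with mCherry+ in red, mCherry- in grey, circles for plate 1 and triangles for plate 2. Asterisks mark ccr2, with both red points right of both grey points, and ccl34b.1, with both red points left of both grey points.

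ccr2 had 18 and 62 UMIs in mCherry+ macrophage-like wells, against 12 and 5 in mCherry- macrophage-like wells. That is 71.3 and 68.4 CPM in mCherry+ wells, against 22.1 and 9.95 CPM in mCherry- wells. Its log2 fold change was 2.12 (SE 0.47, edgeR adjusted p = 0.0282), with 1.44 on plate 1 and 2.43 on plate 2. In thinned wells it was seen in 3 of 24 mCherry+ and 3 of 52 mCherry- wells of plate 1, and in 9 of 74 mCherry+ and 2 of 52 mCherry- wells of plate 2. The call was lost without the plate block (adjusted p = 0.0738), with DESeq2 (adjusted p = 0.208), at a clustering resolution of 0.5 (adjusted p = 0.0851) and without the top well of each sum (adjusted p = 0.0706). Cluster 4, mostly of mCherry+ wells, had the highest ccr2 level of the macrophage-like clusters, with 87.5 CPM, against 23.9 CPM in cluster 1 and 21.4 CPM in cluster 5. Within cluster 1 on plate 2, ccr2 had 49.7 CPM in 30 mCherry+ wells and 6.20 CPM in 50 mCherry- wells, but within cluster 5 on plate 1 it had 1 UMI in 9 mCherry+ wells and 12 UMIs in 49 mCherry- wells.

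ccl34b.1 had 14 and 133 UMIs in mCherry+ macrophage-like wells, against 225 and 170 in mCherry- macrophage-like wells. That is 55.5 and 147 CPM in mCherry+ wells, against 414 and 338 CPM in mCherry- wells. Its log2 fold change was −1.93 (SE 0.41, edgeR adjusted p = 0.0255), with −2.95 on plate 1 and −1.15 on plate 2. The call was lost without the plate block (adjusted p = 0.0655) and at a resolution of 0.5 (adjusted p = 0.112). With wells thinned to 2000 UMIs ccl34b.1 was the 1 member that passed (adjusted p = 0.00654), and ccr2 was too sparse there to be tested. ccl34b.1 was a gene of few wells, 5 of which gave 47.6% of its UMIs in all kept wells. It stood at 335 CPM in cluster 1, 20.8 CPM in cluster 4 and 382 CPM in cluster 5. Within cluster 1 on plate 2 it had 327 CPM in mCherry+ wells and 351 CPM in mCherry- wells. Within cluster 5 on plate 1 it had 147 CPM in 9 mCherry+ wells and 422 CPM in 49 mCherry- wells. The part of the cluster mix in the gate difference was not tested.

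**Figure D5:**
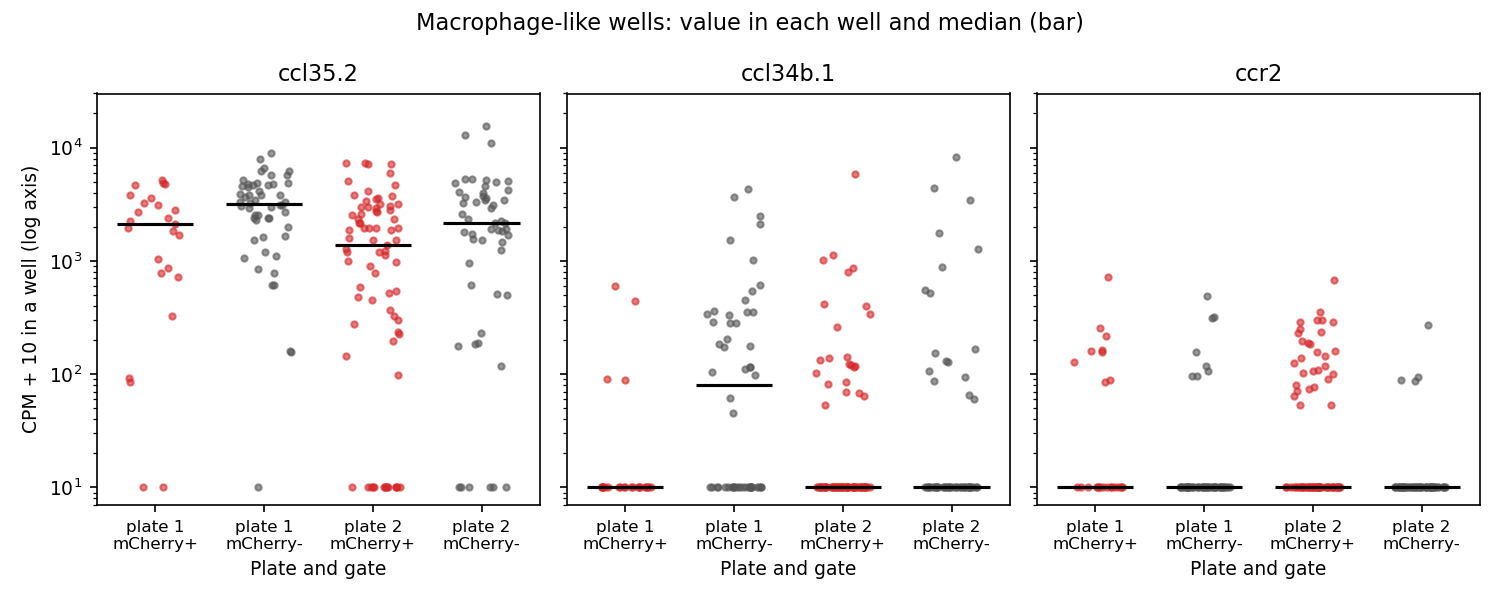
CPM + 10 on a log axis in each macrophage-like well for ccl35.2, ccl34b.1 and ccr2, by plate and gate, with mCherry+ in red, mCherry- in grey and a bar at the median. ccl35.2 filled most wells of every gate, while ccl34b.1 and ccr2 were at 0 in many wells and ccl34b.1 spread up to 8294 CPM.

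ccl35.2 had 2246 and 1875 CPM in mCherry+ macrophage-like wells, against 3299 and 2415 CPM in mCherry- wells. Each mCherry+ sum was below each mCherry- sum, but the log2 fold change of −0.50 (SE 0.19) did not pass (edgeR adjusted p = 0.199). Per well, the lowest, median and highest values were 0, 2099 and 5202 CPM in mCherry+ and 0, 3165 and 8892 CPM in mCherry- wells of plate 1. They were 0, 1366 and 7363 CPM in mCherry+ and 0, 2143 and 15508 CPM in mCherry- wells of plate 2. Wells at 0 numbered 2 mCherry+ and 1 mCherry- on plate 1, and 14 mCherry+ and 6 mCherry- on plate 2. The wells of the gates overlapped on both plates, and the highest wells were mCherry- on each. Within cluster 1 on plate 2, ccl35.2 was higher in mCherry+ wells, with 2690 CPM in 30 mCherry+ and 2404 CPM in 50 mCherry- wells. Within cluster 5 on plate 1 it had 2907 CPM in 9 mCherry+ and 3336 CPM in 49 mCherry- wells. Within cluster 4 on plate 2 it had 1332 CPM in 45 mCherry+ and 2697 CPM in 3 mCherry- wells. These cluster values were not tested.

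ccl38.1 had 35.7 and 34.2 CPM in mCherry+ macrophage-like wells, against 84.5 and 93.5 CPM in mCherry- wells (log2 fold change −1.39, SE 0.36, edgeR adjusted p = 0.057). cxcr3.3 had 111 and 233 CPM in mCherry+ wells, against 228 and 382 CPM in mCherry- wells (log2 fold change −0.89, SE 0.29, edgeR adjusted p = 0.138). Its neighbour cxcr3.2 had 345 and 290 CPM in mCherry+ wells, against 173 and 350.1 CPM in mCherry- wells, higher on plate 1 and lower on plate 2 (edgeR adjusted p = 0.756). In thinned wells of plate 1 cxcr3.2 was seen in 19 of 24 mCherry+ wells (79.2%, 57.8 to 92.9%) and 20 of 52 mCherry- wells (38.5%, 25.3 to 53.0%). On plate 2 it was seen in 28 of 74 mCherry+ wells (37.8%, 26.8 to 49.9%) and 24 of 52 mCherry- wells (46.2%, 32.2 to 60.5%), so the order of the gates was not the same on the 2 plates.

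CXCR4 (ENSDARG00000041959) had 79.2 and 136 CPM in mCherry+ macrophage-like wells, against 64.3 and 53.7 CPM in mCherry- wells (log2 fold change 0.83, SE 0.39, edgeR adjusted p = 0.321). ccr12a had 277 and 358 CPM in mCherry+ wells, against 131 and 364 CPM in mCherry- wells (edgeR adjusted p = 0.553). ccr12b.2 had 2 and 9 UMIs in mCherry+ wells, against 29 and 10 in mCherry- wells (edgeR adjusted p = 0.205). CCR8, too sparse for the test here, had 7 and 16 UMIs in mCherry+ wells, against 0 and 2 in mCherry- wells. Beside these values, the neutrophil marker list summed to 2224 and 2112 CPM in mCherry+ macrophage-like wells, against 4882 and 3608 CPM in mCherry- wells, and its part in them was not tested. In this comparison 0 of 24 genes of the signal transduction list passed in either direction, and of 7 other attractant receptors GPR84 and PTAFR fell.

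Detection of members in the same well was compared in thinned wells. Of the 162 macrophage-like wells with a ccl35.2 UMI, 47.5% also had one of cxcr3.2, against 35% of those without. For ccr12a the shares were 37.7% with ccl35.2 and 42.5% without. Both cxcr3.2 and cxcr3.3 were seen in 32 of 202 macrophage-like wells, and 35.16% of wells with cxcr3.2 had cxcr3.3, against 34.2% of wells without. In 119 neutrophil-like wells, CXCR4 (ENSDARG00000041959) and CCR9 were seen together in 16 wells, with CCR9 in 34.04% of wells with CXCR4 and in 27.8% of those without. These shares are descriptions of sparse counts and were not tested.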

How the data were processed

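Tails were cut at the tip of the yolk extension, and sorted cells were processed by SORT-seq. The authors deposited 1 table of genes by wells per plate (plates 1 and 2, replicates 1 and 2) that holds expected counts: numbers of distinct UMIs corrected for molecules that drew the same tag, with no normalization. Every value lay within 0.005 of this correction for a tag of 6 bases, which added 3.85% on plate 1 and 7.00% on plate 2. The labels name the build GRCz11 and the tools BWA and Seurat. Spike-ins (1.13%) were set aside. Plate 1 then held 3266490 UMIs and plate 2 held 2962590, rounded. Identifiers were paired with names from a reference table (17425 of 22342). Some names are in the human style, and 8 members share theirs with another identifier.

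The members and gene lists were chosen with earlier results of these data known. A member with at least 50 UMIs in kept wells was given with its value by plate and gate. Wells with at least 500 UMIs and 200 genes were kept (534). They were clustered without the 33 members on log values scaled to 10000 UMIs, with 2000 variable genes, 30 principal components, 15 neighbors and Leiden resolution 1 (scanpy 1.11.5, leidenalg 0.10.2). A cluster was named from marker lists when at least 3 markers were raised by 1 unit of log2(CPM + 50) or more and its leading genes did not go against the name, a rule set only once the data were known. Doublets were not called. The sort was meant to place 1 cell in each well, and wells that held attached cells were not looked for.

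Expected counts were summed per plate and group and rounded. edgeR 4.0.16 (R 4.3.3) tested the 4 sums by the quasi-likelihood test with filterByExpr, TMM and the plate as block, since the labels place both gates on each plate, and p-values were adjusted over all genes tested by Benjamini-Hochberg. With the block 1 residual degree of freedom was left, and the prior over genes added 8.28, 9.82 and 5.94 for gates in all wells, gates in macrophage-like wells and cell types. SE is the fold change divided by the root of F. With the block, p-values rest on how the group difference varied between 2 plates and on the prior over genes. Whether the plates came from separate clutches is not stated, so p-values cannot be read as covering the spread between clutches. Folds on 1 plate use TMM-scaled log2 CPM with 2 as the prior count and were not tested. For members with 3 or fewer UMIs on one side no fitted fold is given. Shares of wells were taken after thinning to 2000 UMIs, which left out 64 of 534 wells, with exact Clopper-Pearson intervals (scipy 1.17.1). UMIs count molecules and were not divided by gene length. The test was checked on simulated data in which only well-counted genes were changed, so the check does not cover sparse members. Alternatives were no block, DESeq2 1.42.0, no filter, other well minimums, whole UMIs, thinning, other clusterings, and leaving out muscle-like wells, top wells or a plate.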

Additional observations from a re-analysis of the deposited data

How the results depend on the processing

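Between gates over all kept wells, where 0 members passed, edgeR called 5 members with all wells, 2 at a minimum of 1000 UMIs, 9 without a filter on low counts and 1 with wells thinned to 2000 UMIs, and DESeq2 called 1. It called 0 without the replicate block, with whole UMIs and without muscle-like wells. In macrophage-like wells, where 2 passed, 0 passed without the replicate block, 0 at Leiden resolution 0.5, 1 with DESeq2 and 1 with thinned wells (ccl34b.1 in each, with ccr2 not tested in thinned wells), while the count stayed at 2 under resolution 2, a minimum of 1000 UMIs, no filter, whole UMIs and members kept in the clustering. Between cell types 8 to 14 members passed under every alternative, against 11. Over all kept wells the sign of ccr12a turned to 0.026 without the replicate block, 0.37 with thinned wells and 0.049 without muscle-like wells, and that of cxcr3.2 to 0.093 with thinned wells, all far from the threshold. The share of all genes called is not given for these alternatives, so their counts of members cannot be set against it. The causes of these changes were not tested. Each plate alone kept the sign of every call in both comparisons with calls. On 1 plate alone the log2 fold change in macrophage-like wells was 1.44 to 2.43 for ccr2 and −2.95 to −1.15 for ccl34b.1. Depth limits the sparse members: 15 of 33 were not tested between gates and 20 within macrophage-like wells.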
